A study of Mus musculus with 3 samples.

Results

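The transcription factors Bhlha15, Etv1, Sox9, Nfia, Tfcp2l1, Runx1, Barx2, Sox10, Trp63 and Nfib were followed through the epithelium of the adult mouse lacrimal gland (LG), the gland that makes the watery part of tears. These 10 genes, taken by name from the 32285 genes of the count matrices, are regulators that mark or direct epithelial lineages of exocrine glands. The LG was profiled by single-cell RNA sequencing in 3 libraries, female replicate 1 and male replicates 1 and 2, each made from the 6 LGs of 3 C57BL/6J mice aged 2 months. All mice were unmanipulated, and because the 3 animals of a library were pooled, the spread between libraries is that between pools. Since the 1 female library also differs from both male libraries in the core facility and the day of its preparation, these cannot be told apart from sex, and the sexes are set side by side without a test.

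The secretory unit of the gland is the acinus, a ball of acinar cells that release tear proteins into a small duct. Myoepithelial cells (MECs) wrap the acini and contract, and larger ducts have a basal layer that shares keratins with the MECs. During development SOX9 and SOX10 act in the branching buds, fibroblast growth factor (FGF) signals reach the nucleus partly through ETS factors such as ETV1, p63 (Trp63) maintains basal cells, and MIST1 (Bhlha15) completes the secretory machinery of acinar cells.

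Epithelial cells were sorted into 6 classes by clustering and marker genes, with all 10 genes and nearly all of their listed partners (Gata3 and Sox2 being markers) kept out of the clustering and the 10 genes also kept out of the markers. The classes are called acinar, Tfrc-high acinar (named for the transferrin receptor gene), Car6-high acinar (carbonic anhydrase 6), Ltf+ (lactotransferrin), duct (Krt5, Krt14, Wfdc2) and MEC (Acta2, Cnn1), each name meaning cells like that type. In the female library and male replicates 1 and 2 they held 578, 1289 and 1709 acinar cells, 70, 146 and 170 Tfrc-high cells, 69, 63 and 46 Car6-high cells, 73, 301 and 291 Ltf+ cells, 1056, 330 and 275 duct cells and 331, 325 and 274 MECs. These were 7396 of the 18344 cells kept, and 1172 further epithelial cells stayed without a name. Clusters took their names from these same markers, so marker levels describe the classes and do not test the labels. The summed level of 10 MEC markers was 26590 to 30270 in MECs and at most 5995 in the other classes. That of 10 duct markers was 14090 to 15160 in duct cells, 4398 to 7398 in MECs and 5384, 771 and 1204 in Ltf+ cells. Krt5 and Krt14 are in both the duct and the MEC list. That of 6 Ltf+ markers was 7124 to 10810 in Ltf+ cells. Outside tear products, 4 acinar markers summed to 2533 to 2932 in acinar cells and 1213 to 1999 in Tfrc-high cells. The 13 Tfrc-high markers, among them Malat1, Neat1 and the splicing genes Srsf5 and Snrnp70, summed to 130700 to 188300 in Tfrc-high cells. They reached at most 74050 in the other classes. Median mitochondrial shares of Tfrc-high cells were 1.47%, 0.709% and 0.417%. The part of this RNA make-up in the Tfrc-high values below was not tested. The leading genes of the Car6-high class (Chia1, Amy1, Bpifa2, Cst10 and Smr3a) hold none of its 8 markers, although all 8 were raised, and Amy1 and Bpifa2 are also known as parotid products. The paper describes Amy1, Bpifa2 and Smr3a in a small female-specific subset with low levels of some Car6-high genes, while the class here drew cells from each library. A cluster of 202 cells led by Dcpp1 and Car6 stayed without a name. Car6-high below therefore means the named class alone, which may be only a part of such cells. Which gland the cells of the Car6-high class came from was not tested.

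A level is given throughout as unique molecular identifiers (UMIs, which count each captured RNA once) per 1000000 UMIs outside tear-product and mitochondrial genes, since tear products took 90.1% to 90.9% of the UMIs of acinar cells and 29.0% to 54.0% of those of MECs. Called barcodes numbered 9737, 6422 and 6899 with 63066640, 40609390 and 44661762 UMIs, and pairs of libraries shared 12 to 18 barcodes. Cell-free RNA was plentiful: barcodes with at least 300 UMIs that were not called as cells carried 90.6% to 92.0% tear-product UMIs. For some genes and classes the UMIs expected from this source are therefore set beside those counted. Shares not given below include 26.7% of 4 Sox10 UMIs in acinar cells and 18.2% of 113 Etv1 UMIs in Ltf+ cells. They also include 17.8% of 8 Tfcp2l1 UMIs in MECs, and in Tfrc-high cells 17.4% of 70 Bhlha15 UMIs and 48.8% of 1 Barx2 UMI.

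The counts come from the 3′ ends of transcripts of genes placed on the GRCm38 build (mm10). Bhlha15 is on chromosome 5 (144190286 to 144194441, plus strand), Etv1 on 12 (38779380 to 38870484, plus), Sox9 on 11 (112782224 to 112787760, plus) and Nfia on 4 (97772734 to 98118874, plus). Tfcp2l1 is on chromosome 1 (118627945 to 118685168, plus), Runx1 on 16 (92601466 to 92826149, minus) and Barx2 on 9 (31846044 to 31913462, minus). Sox10 is on chromosome 15 (79154908 to 79165240, minus), Trp63 on 16 (25683763 to 25892102, plus) and Nfib on 4 (82290173 to 82705750, minus).

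To ask which class each factor marks, UMIs were summed per library and class, and each class was tested against the mean of the other 5 in 1 fit over 7097 genes with the edgeR quasi-likelihood test and Benjamini-Hochberg adjustment. Apart from Sox10, each of the 9 genes passed the test in at least 1 class. The share of all genes that did so was not counted, so this says nothing particular to these factors. Over all 10 genes 42 of the 60 values passed, 25 of them higher and 17 lower, and the shares of all genes are given class by class. In acinar cells 2 of the 10 genes were higher and 5 lower, where 27.4% of all genes tested were higher and 17.6% lower. In Tfrc-high cells 3 were higher and 2 lower (17.9% and 19.1% of all genes), in Car6-high cells 4 and 2 (5.02% and 4.42%), and in Ltf+ cells 5 and 2 (19.8% and 6.12%). In duct cells 6 were higher and 2 lower (29.8% and 14.3%), and in MECs 5 and 4 (29.6% and 16.4%). With Sox10 left out, the median log2 fold change of the 9 genes was -1.74 in acinar cells, 1.27 in duct cells and -0.17 in MECs, and that of all genes 0.0023, 0.23 and 0.17. With the 3 acinar classes set against Ltf+, duct and MEC together, Bhlha15 and Etv1 were higher and the other 8 genes lower, where 18.7% of all genes were higher and 36.6% lower.

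These directions are relative to a scaling that balances most genes (TMM). Scaled to total UMIs instead, the median of all genes moved to -2.06 in acinar cells, -1.88 in the acinar classes together and 1.35 in MECs, so values near those shifts say little about a gene. The calls of Sox10 (higher in Car6-high cells, Ltf+ cells and MECs, lower in the acinar classes together) are counted here but no fold is given, because Tfrc-high cells held no Sox10 UMI and a fold against them depends on the fit. Its other classes are compared in pairs. Of all genes tested, the share called between a pair of classes, in either direction, was 37.7% for acinar and Tfrc-high cells, 3.13% for acinar and Car6-high, 41.2% for acinar and Ltf+, 57.5% for acinar and duct, and 59.6% for acinar cells and MECs. It was 22.2% for Tfrc-high and Car6-high cells, 40.9% for Tfrc-high and Ltf+, 46.1% for Tfrc-high and duct, and 48.8% for Tfrc-high cells and MECs. It was 13.3% for Car6-high and Ltf+ cells, 33.1% for Car6-high and duct, 35.4% for Car6-high and MEC, 26.8% for Ltf+ and duct, 35.6% for Ltf+ and MEC, and 17.3% for duct cells and MECs. Barx2 and Trp63 also had classes with 1 or 2 UMIs, and their fitted values there are given with the counts.

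**Figure D1:**
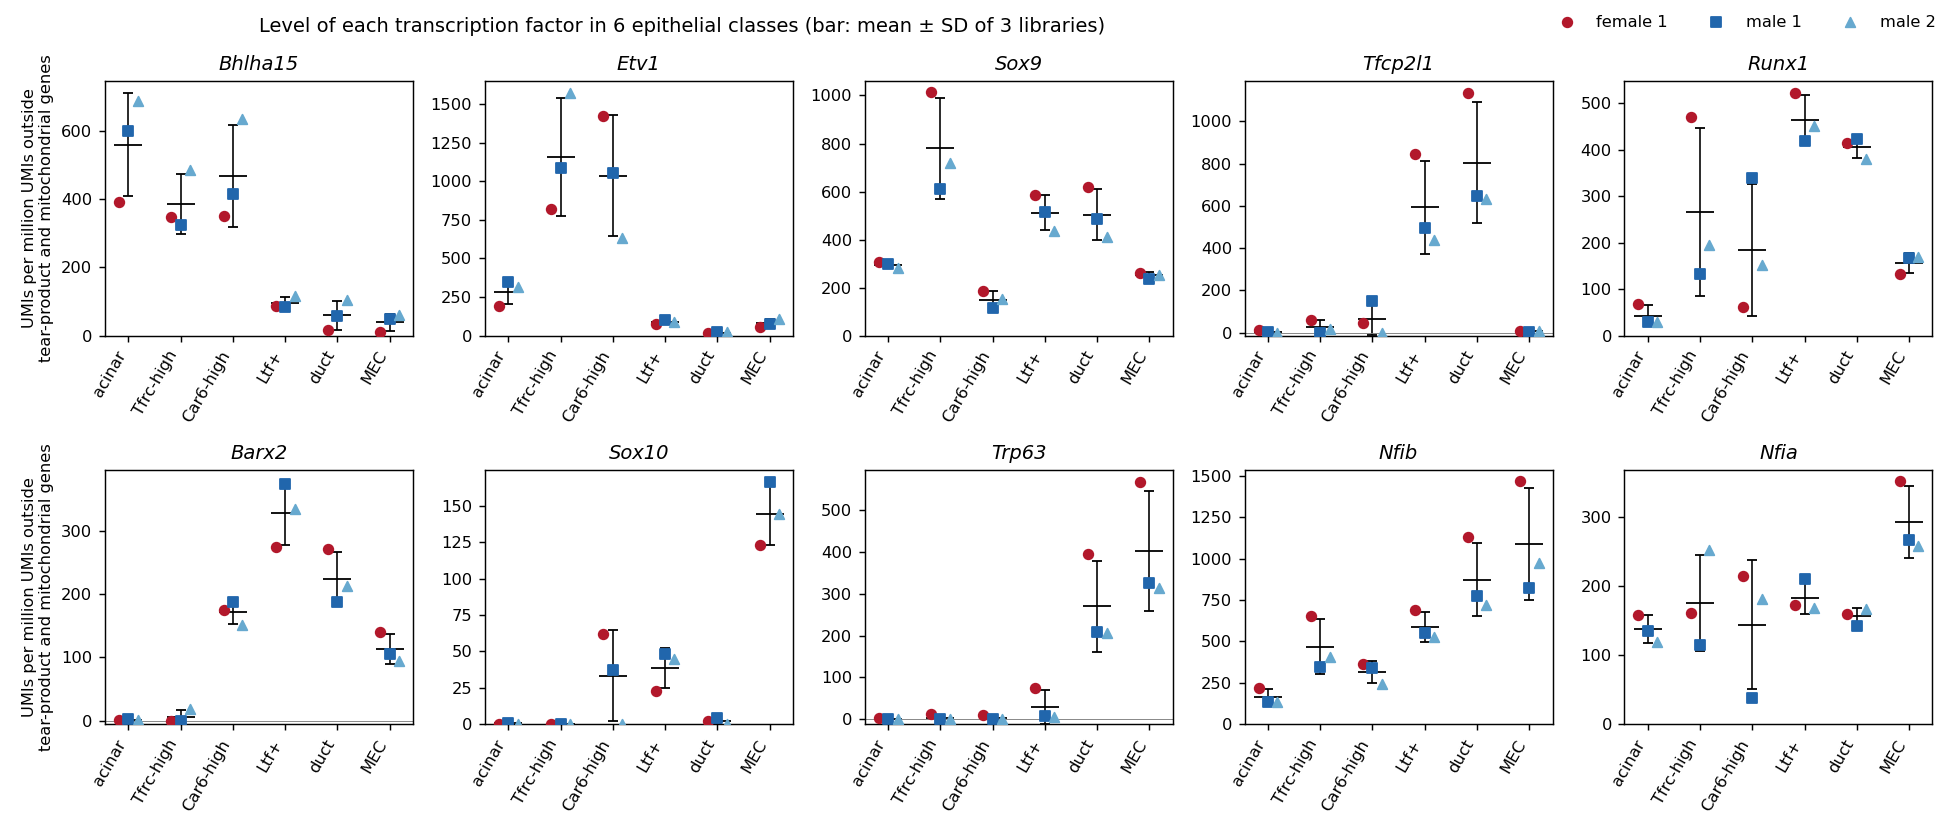
Level of each of the 10 transcription factors (vertical axis, UMIs per 1000000 UMIs outside tear-product and mitochondrial genes) in the 6 epithelial classes (horizontal axis), with 1 point per library and a bar for the mean ± SD of 3 libraries. Bhlha15 and Etv1 are high in the 3 acinar classes, Tfcp2l1 in the Ltf+ and duct classes, Sox10 in MECs, and Trp63 in the duct class and MECs.

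**Figure D2:**
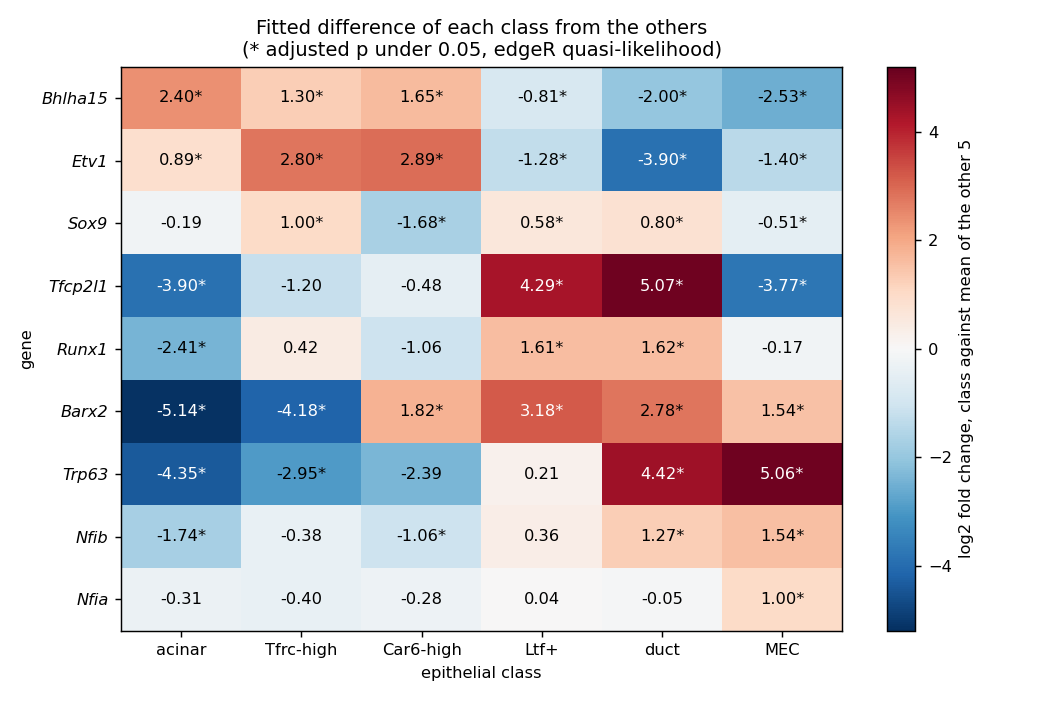
Log2 fold change of 9 of the factors (rows, Sox10 left out) in each epithelial class against the mean of the other 5 classes (columns), with the value in each cell and a star where the adjusted p was under 0.05. Red is higher and blue lower, with Tfcp2l1 at 5.07 in the duct class and Barx2 at -5.14 in the acinar class.

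Bhlha15 encodes MIST1, a basic helix-loop-helix factor that scales up secretion and the endoplasmic reticulum (ER) of exocrine cells. Its level in acinar cells was 392 in the female library, 599 in male replicate 1 and 687 in male replicate 2. It was 350, 414 and 634 in Car6-high cells and 347, 324 and 485 in Tfrc-high cells, against 86.3, 83.4 and 115 in Ltf+ cells, 17.7, 57.0 and 104 in duct cells and 11.3, 47.1 and 59.8 in MECs. Every acinar value lay above every value of the Ltf+, duct and MEC classes. The log2 fold change of the acinar class was 2.40 (SE 0.20, adjusted p = 1.75e-11), with 1.65 in Car6-high cells (SE 0.29, adjusted p = 0.000188) and 1.30 in Tfrc-high cells (SE 0.30, adjusted p = 0.000975). Scaled to total UMIs the acinar value was 0.25 and did not pass (adjusted p = 0.357), beside a median of -2.06 over all genes. Acinar and Car6-high cells, neighbours in the order of levels, lay 0.62 log2 apart (SE 0.31, adjusted p = 0.305) and Car6-high and Tfrc-high cells 0.30 (SE 0.37, adjusted p = 0.620), and neither difference passed. Acinar and Tfrc-high cells, the ends of that order, differed by 0.91 (SE 0.32, adjusted p = 0.0231).

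Outside the acinar classes the Bhlha15 counts lay nearer to those expected from cell-free RNA. Of 80 Bhlha15 UMIs in duct cells 58.1 were expected from free RNA, of 34 in MECs 28.5, and of 120 in Ltf+ cells 67.5. In acinar cells, 113 of 3987 were expected. The Ltf+ value of -0.81 (SE 0.27, adjusted p = 0.0245) did not pass without male replicate 1 (adjusted p = 0.189) or male replicate 2 (adjusted p = 0.249). With 2 unnamed clusters counted in the Ltf+ and Car6-high classes, a setting added once the data had been seen, the Bhlha15 value in Ltf+ cells was 0.033 (adjusted p = 0.961).

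**Figure D3:**
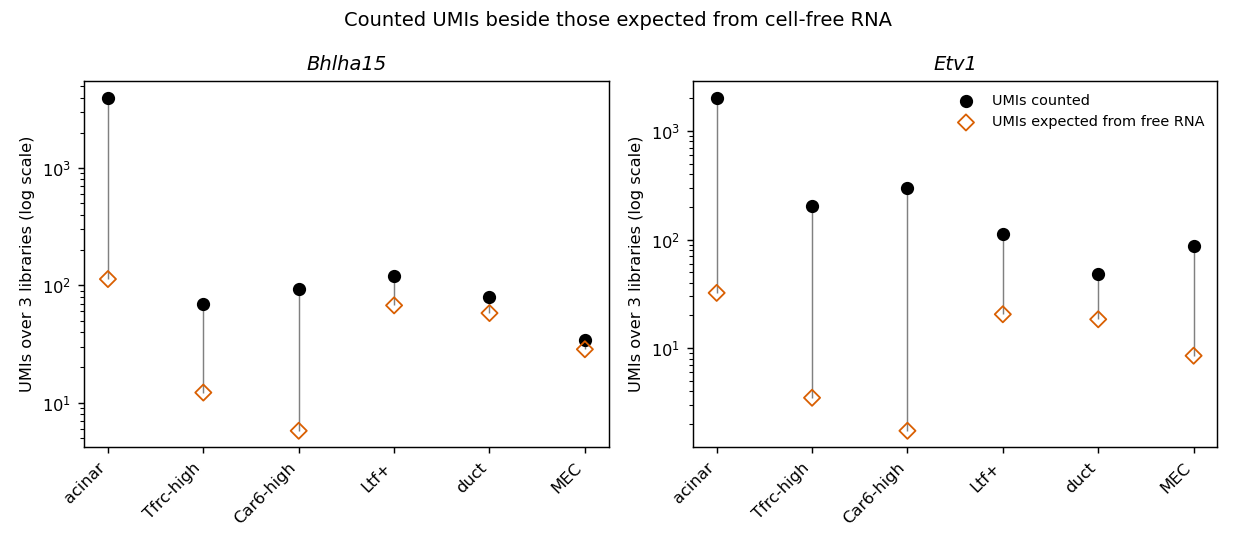
UMIs of Bhlha15 (left) and Etv1 (right) counted over the 3 libraries (filled circles) and expected from cell-free RNA (open diamonds) in each of the 6 epithelial classes, on a log axis. The symbols nearly touch for Bhlha15 in duct cells (80 counted, 58.1 expected) and MECs (34 and 28.5) and stand far apart in acinar cells (3987 and 113). In the 3 acinar classes the expected UMIs come from the amount per duct cell and MEC, in the others from the tear-product UMIs of the class.

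Listed MIST1 targets of the secretory path were set beside Bhlha15. Of 6 targets, 3 had enough UMIs to be tested and all 3 were higher in acinar cells and lower in duct cells and MECs. Of all genes, 27.4% were higher in acinar cells, 14.3% lower in duct cells and 16.4% lower in MECs. Rab26, a small GTPase of secretory granules, had a log2 fold change of 2.07 in acinar cells (SE 0.26, adjusted p = 8.94e-08). Rab3d, which acts in granule exocytosis, was at 1.73 (SE 0.17, adjusted p = 1.00e-09) and Copz2, a vesicle coat protein, at 1.02 (SE 0.17, adjusted p = 8.43e-06). The genes whose pattern over the 18 sums of library and class was most like that of Bhlha15, among 6413 candidates, were Derl3 (Pearson r = 0.986), which acts in ER-associated degradation, Herpud1 (0.971), a gene of the same path, and Chst1 (0.970), a sulfotransferase. The 18 points share libraries and classes, so these are descriptions.

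Because Derl3 and Herpud1 moved with Bhlha15, the 3 promoters are shown to set their sequences beside the shared pattern, from 250 bases before to 50 bases after the RefSeq start site on GRCm38.p6, 5′ to 3′ along the gene. Capitals mark a match to the ER stress response elements searched on both strands, ERSE (CCAAT and CCACG with 9 bases between them) and ERSE-II (ATTGG and CCACG with 1 base between them), and no window held both. The windows are chr5:144190036-144190335 for Bhlha15, chr10:75893148-75893447 for Derl3 and chr8:94386179-94386478 for Herpud1, all on the plus strand.
Bhlha15: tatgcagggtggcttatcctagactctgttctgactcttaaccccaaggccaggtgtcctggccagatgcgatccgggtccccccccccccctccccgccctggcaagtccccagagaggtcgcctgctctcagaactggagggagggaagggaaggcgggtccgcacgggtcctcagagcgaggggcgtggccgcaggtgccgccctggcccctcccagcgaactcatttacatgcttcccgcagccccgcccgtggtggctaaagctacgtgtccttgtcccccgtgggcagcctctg
Derl3: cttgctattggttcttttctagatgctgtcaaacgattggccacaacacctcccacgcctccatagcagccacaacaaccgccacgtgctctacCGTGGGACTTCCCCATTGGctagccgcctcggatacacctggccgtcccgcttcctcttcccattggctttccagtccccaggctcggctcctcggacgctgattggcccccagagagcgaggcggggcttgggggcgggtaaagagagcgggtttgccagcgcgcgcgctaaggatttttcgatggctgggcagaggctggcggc
Herpud1: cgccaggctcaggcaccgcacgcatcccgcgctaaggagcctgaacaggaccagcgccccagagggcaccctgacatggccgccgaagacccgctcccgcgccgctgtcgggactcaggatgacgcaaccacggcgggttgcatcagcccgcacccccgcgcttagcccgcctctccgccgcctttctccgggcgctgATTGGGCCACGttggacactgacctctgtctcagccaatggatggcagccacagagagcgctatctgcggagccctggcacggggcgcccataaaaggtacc
Derl3 held ERSE on the reverse strand, its first base 156 bases before the start site, as did 39 of 32851 promoters in the table (0.119%). Herpud1 held ERSE-II 52 bases before its start site, as did 12 promoters (0.0365%). Neither run of letters was in the Bhlha15 window, nor in the windows of the other 4 of the 10 factors in the table. The E-box CATATG, a sequence that MIST1 is known to bind, was in 3.91% of all promoters and in none of the 3 shown. A match is a run of letters, not a bound site.

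Etv1 encodes an ETS factor that in other glands lies downstream of FGF and ERK signals. It was highest in Tfrc-high cells, at 817 in the female library, 1085 in male replicate 1 and 1570 in male replicate 2, and in Car6-high cells, at 1421, 1053 and 634. In acinar cells it stood at 190, 347 and 316, in Ltf+ cells at 74.9, 101 and 89.2, in MECs at 57.8, 72.4 and 110 and in duct cells at 14.4, 20.4 and 23.0. No Tfrc-high or Car6-high value overlapped any other class. The log2 fold change was 2.80 in Tfrc-high cells (SE 0.24, adjusted p = 1.17e-10) and 2.89 in Car6-high cells (SE 0.24, adjusted p = 1.30e-10), and acinar cells lay below both, by 1.59 against Tfrc-high (SE 0.30, adjusted p = 7.71e-05) and by 1.67 against Car6-high cells (SE 0.31, adjusted p = 0.000582). The 0.075 between Tfrc-high and Car6-high cells did not pass (SE 0.32, adjusted p = 0.926). The acinar value of 0.89 (SE 0.22, adjusted p = 0.00130) turned to -1.25 with total UMIs. Duct cells were lowest, 2.08 log2 below MECs (SE 0.45, adjusted p = 0.000821), and of their 48 Etv1 UMIs 18.5 were expected from free RNA. In Tfrc-high cells 3.50 of 204 Etv1 UMIs were expected from it. Taken from the amount per duct cell and MEC, free RNA came to 43.7% to 92.5% of all UMIs of that class. The highest value, in male replicate 2, is too high. Free RNA there was 91.7% tear product, and the UMIs of the class were 72.2% tear product.

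Genes of the FGF-ERK response were set beside Etv1. Of 9 listed response genes 6 were tested, and all 6 were higher in duct cells, where 29.8% of all genes were higher, and in MECs, where 29.6% were. All 6 were lower in the acinar classes, where 36.6% of all genes were lower. Class by class, 4 of the 6 were lower in acinar cells and none passed in Tfrc-high, Car6-high or Ltf+ cells. Dusp6, an ERK phosphatase, had a log2 fold change of -2.76 in the acinar classes (SE 0.31, adjusted p = 4.37e-09) and Spry2, an inhibitor of FGF signalling, -2.12 (SE 0.32, adjusted p = 1.02e-06). For the other two of the 4 genes named, Spry1 and Etv5, counts are given, because some acinar classes held none. Spry1 had 182 UMIs in MECs (a level of 143 over the 3 libraries), 203 in duct cells (64.8), 26 in acinar cells (3.70) and 0 in Tfrc-high and Car6-high cells. Etv5, the close relative of Etv1, had 190 UMIs in MECs (149), 36 in duct cells (11.5), 2 in Tfrc-high cells (10.8) and 0 in acinar and Car6-high cells. Etv1 in the same contrast was at 3.65 (SE 0.21, adjusted p = 1.52e-15). The genes most like Etv1 in pattern were Edem1 (r = 0.904), which sorts misfolded proteins in the ER, Sec61a1 (0.9002), the channel through which proteins enter the ER, and Egf (0.898), epidermal growth factor.

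Of 37 other listed gland regulators 26 were tested. In Tfrc-high cells 9 of the 26 were higher and 0 lower, beside 17.9% and 19.1% of all genes. In the acinar classes 6 of them were higher and 9 lower, beside 18.7% and 36.6% of all genes. Creb3l1, an ER-bound factor of secretory cells, was higher by 3.44 log2 (SE 0.35, adjusted p = 7.23e-10), Elf5, an ETS factor of secretory luminal cells, by 2.21 (SE 0.26, adjusted p = 1.72e-08), while Tead1, the partner of YAP, was at -2.48 (SE 0.27, adjusted p = 3.36e-09). Id1, an inhibitor of basic helix-loop-helix factors, had 230 UMIs in duct cells (a level of 73.4 over the 3 libraries) and 31 in Ltf+ cells (24.3). It had 19 in acinar cells (2.71), 1 in Tfrc-high cells (5.41) and 0 in Car6-high cells. MECs held 2 (1.57), so their level was not above that of acinar cells.

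Sox9, a factor of budding and duct progenitors, was broad. Its level was 1015, 609 and 717 in Tfrc-high cells in the female library and male replicates 1 and 2, 584, 516 and 436 in Ltf+ cells, 617, 484 and 409 in duct cells, 305, 298 and 282 in acinar cells, 262, 235 and 254 in MECs and 186, 113 and 151 in Car6-high cells. Every class held the RNA above the level expected from free RNA, which was 1.45% to 5.82% of the UMIs. Sox9 was higher in Tfrc-high cells (log2 fold change 1.00, SE 0.20, adjusted p = 0.000142) and in duct cells (0.80, SE 0.17, adjusted p = 0.000333), and lower in Car6-high cells (-1.68, SE 0.27, adjusted p = 6.87e-05). Tfrc-high, duct and Ltf+ cells, neighbours in the order of fitted levels, showed no difference that passed (0.17, SE 0.24, adjusted p = 0.598, and 0.18, SE 0.22, adjusted p = 0.614), nor did acinar cells and MECs (0.26, SE 0.23, adjusted p = 0.329). Smaller differences lost their calls when 1 library was left out. The Ltf+ value of 0.58 (SE 0.17, adjusted p = 0.0117) did not pass without male replicate 1 (adjusted p = 0.121) or 2 (0.116), and the MEC value of -0.51 (SE 0.19, adjusted p = 0.0323) did not pass without any 1 of the 3 libraries and turned to 0.65 with total UMIs. In the acinar classes together the value of -0.48 (SE 0.15, adjusted p = 0.00699) did not pass without male replicate 1 (adjusted p = 0.0685) or male replicate 2 (0.119).

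The patterns most like that of Sox9 were those of the RNA gene Snhg4 (r = 0.910), the kinase gene Eif2ak2 (0.909) and the kinase gene Stk24 (0.899). Median depth for Sox9, in UMIs a cell outside tear-product, mitochondrial and ribosomal protein genes, was 993.5, 280 and 263.5 in Tfrc-high cells in the female library and male replicates 1 and 2, 1407, 999 and 838 in acinar cells and 2064, 565.5 and 465 in duct cells. Cells with at least 300 such UMIs were thinned to 300 and all others were left out. This kept 180 of 386 Tfrc-high cells, so thinned shares describe the deeper part of that class. A Sox9 UMI was then seen in 21.7% of 180 Tfrc-high cells (exact 95% interval 15.9% to 28.4%) and 17.8% of 1599 duct cells (15.98% to 19.8%). It was seen in 10.5% of 3287 acinar cells (9.44% to 11.6%) and 0.447% of 3135 myeloid cells (0.244% to 0.748%). By library, the thinned Sox9 share was 28.6%, 20% and 14% in Tfrc-high cells, 18.5%, 16.7% and 16.5% in duct cells and 7.002%, 12.0% and 10.3% in acinar cells. Acinar cells were thus lowest of these 3 classes in each library, while Tfrc-high and duct cells changed order in male replicate 2. Unthinned, the pooled shares were 23.8%, 53.3%, 34.3% and 2.03%. These intervals cover counting error alone.

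Nfia, a nuclear factor I protein that works on many enhancers, had class means between 138 and 293. It stood at 353, 268 and 259 in MECs in the female library and male replicates 1 and 2, above every value of the Ltf+, acinar, duct, Tfrc-high and Car6-high classes, which ran from 37.6 to 252. It was higher in MECs (log2 fold change 1.00, SE 0.19, adjusted p = 4.92e-05), and MECs lay 0.80 above Ltf+ cells (SE 0.24, adjusted p = 0.00914). None of the other 4 neighbouring pairs passed, with gaps of 0.021 to 0.20 log2. The value of -0.55 in the acinar classes together (SE 0.17, adjusted p = 0.00783) did not pass without male replicate 1 (adjusted p = 0.0777). Appl1 (r = 0.937), Dag1 (0.927), the dystroglycan gene, and the septin gene Sept7 (0.926) were most like it in pattern.

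Tfcp2l1, a grainyhead-family factor known from ducts of kidney and salivary gland, was high in both ductal classes and low elsewhere. Its level was 1133 in the female library, 647 in male replicate 1 and 633 in male replicate 2 in duct cells and 847, 494 and 441 in Ltf+ cells. It was 12.7, 2.91 and 0 in acinar cells, 6.29, 3.62 and 9.96 in MECs, 61.9, 0 and 19.4 in Tfrc-high cells and 45.1, 150 and 0 in Car6-high cells. The lowest duct or Ltf+ value was above the highest value elsewhere. Duct cells held 3347 of its UMIs, of which 0.112% were expected from free RNA. The log2 fold change was 5.07 in duct cells (SE 0.27, adjusted p = 3.14e-16) and 4.29 in Ltf+ cells (SE 0.27, adjusted p = 2.49e-14), and -3.90 in acinar cells (SE 0.49, adjusted p = 7.68e-08). Duct and Ltf+ cells lay 0.65 apart (SE 0.30, adjusted p = 0.111), while Ltf+ and Car6-high cells differed by 3.98 (SE 0.54, adjusted p = 2.31e-06). Kcnj15 (r = 0.916), a potassium channel, Alox12 (0.904), a lipoxygenase, and Cldn8 (0.8998), a tight junction claudin, were most like it.

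With cells thinned to 300 UMIs, a Tfcp2l1 UMI was seen in 29.0% of 1599 duct cells (exact 95% interval 26.7% to 31.2%) and 14.4% of 659 Ltf+ cells (11.8% to 17.3%). Of these duct cells 1056 were from the female library, against 73 of the Ltf+ cells. Within the female library and male replicates 1 and 2 the Tfcp2l1 share was 32.4%, 22.2% and 22.4% in duct cells and 23.3%, 13% and 13.6% in Ltf+ cells, higher in duct cells each time. It was seen in 0 of 884 MECs, which allows a share of up to 0.339% of cells with a UMI, and in 0.0609% of 3287 acinar cells (0.00737% to 0.220%). Unthinned shares were 67.6%, 45.1%, 0.645% and 0.783%.

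Runx1, a runt-domain factor best known from blood, was high in both ductal classes. Its level was 522, 419 and 451 in Ltf+ cells and 414, 423 and 380 in duct cells, 132, 167 and 169 in MECs and 68.4, 29.5 and 29.7 in acinar cells. Tfrc-high cells were at 470, 133 and 194 and Car6-high cells at 62.0, 338 and 151, both on 55 UMIs or fewer. Ltf+ (log2 fold change 1.61, SE 0.22, adjusted p = 7.29e-07) and duct cells (1.62, SE 0.23, adjusted p = 5.72e-07) were higher, and the 0.0066 between them did not pass (SE 0.28, adjusted p = 0.996). Acinar cells were lower at -2.41 (SE 0.27, adjusted p = 9.21e-09). In MECs the value was -0.17 (SE 0.27, adjusted p = 0.649) and turned to 0.95 with total UMIs, under the shift of 1.35 of all genes. Cd2ap (r = 0.866), Pde7a (0.854) and Aox3 (0.841) were most like it.

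Runx1 is also a gene of blood cells, and its level was 323, 159 and 155 in myeloid cells. The summed level of 9 myeloid markers in the 6 epithelial classes ran from 60.4 to 450 against 35090 to 37370 in myeloid cells, and was highest in Ltf+ cells of the female library, where 8 of the 9 had a UMI and Cd209a had none. In Ltf+ cells of the male libraries it was 74.7 and 126, with Csf1r, Adgre1 and Cd209a at 0, and Runx1 stood at 419 and 451.

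Barx2, a homeobox factor of LG and conjunctival development, was also ductal but reached further. Its level was 275, 373 and 333 in Ltf+ cells, 271, 187 and 213 in duct cells, 175, 188 and 151 in Car6-high cells and 141, 105 and 94.7 in MECs. In acinar cells it was 1.89, 3.32 and 1.60, from 16 UMIs in 3576 cells of which 4.43 were expected from free RNA, and Tfrc-high cells held 1 UMI. The pooled level of Tfrc-high cells was 0.0165 of that of Ltf+ cells (exact 95% counting interval 0.000417 to 0.0926). The 3 acinar classes were thus split by this gene. Car6-high cells were higher than the mean of the others (1.82, SE 0.35, adjusted p = 0.000733), and acinar (-5.14, SE 0.87, adjusted p = 1.31e-05) and Tfrc-high cells (-4.18, SE 0.79, adjusted p = 8.36e-05, on the single UMI) were lower. The Car6-high value was 1.45 without the female library and did not pass (adjusted p = 0.153), on 10 UMIs in the males. Without male replicate 2 Tfrc-high cells held no Barx2 UMI, so whether the acinar call holds there cannot be said. Ltf+ cells were highest (3.18, SE 0.21, adjusted p = 6.34e-14), 0.33 above duct cells (SE 0.22, adjusted p = 0.289), and duct cells lay 0.80 above Car6-high cells (SE 0.30, adjusted p = 0.0386). Adgrg6 (r = 0.961), an adhesion receptor, Car12 (0.952), a carbonic anhydrase, and Palmd (0.947) were most like it.

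Trp63 encodes p63, a factor that basal cells need. Its level was 567, 326 and 314 in MECs and 395, 208 and 207 in duct cells. It was 2.83, 0.830 and 1.20 in acinar cells, on 11 UMIs, and Tfrc-high and Car6-high cells held 1 and 2 UMIs, pooled levels that were 0.0114 (exact 95% counting interval 0.000288 to 0.0637) and 0.0178 (0.00215 to 0.0645) of that of MECs. In Ltf+ cells it was 74.9 in the female library but 6.59 and 5.25 in the males, on 33, 3 and 2 UMIs. The log2 fold change was 5.06 in MECs (SE 0.27, adjusted p = 6.51e-17) and 4.42 in duct cells (SE 0.29, adjusted p = 2.92e-14), with 0.53 between them (SE 0.26, adjusted p = 0.187), and duct cells lay 3.51 above Ltf+ cells (SE 0.33, adjusted p = 8.13e-10). Acinar cells were at -4.35 (SE 0.95, adjusted p = 0.000333) and Tfrc-high cells at -2.95 (SE 1.16, adjusted p = 0.0440), and the Tfrc-high value did not pass without male replicate 2. Without the female library Tfrc-high and Car6-high cells held no Trp63 UMI, so whether either call holds there cannot be said.

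In the female library the Ltf+ cells also carried more duct markers, which moved with Trp63. The summed level of the 10 duct markers in Ltf+ cells was 5384 in the female library and 771 and 1204 in the males. Of the 19 Ltf+ cells with a Trp63 UMI, 18 also had a Krt14 UMI, where 56 of 665 Ltf+ cells had one. The part of these markers in the Trp63 value was not tested.

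The 10 listed p63 targets, genes of hemidesmosomes, laminins and cell adhesion, were all tested and all higher in MECs and in duct cells, where 29.6% and 29.8% of all genes were higher. All 10 were lower in the acinar classes, where 36.6% of all genes were. Lama3, a laminin chain, had a log2 fold change of 4.77 in MECs (SE 0.28, adjusted p = 7.09e-16). For the other three named, Jag2, Lamb3 and Col17a1, Tfrc-high cells held no UMI, so counts are given. Jag2, a Notch ligand, had 265 UMIs in MECs (a level of 208 over the 3 libraries), 567 in duct cells (181) and 8 in acinar cells (1.14). Lamb3, a laminin chain, had 495 in MECs (389), 947 in duct cells (302.0) and 9 in acinar cells (1.28). Col17a1, a hemidesmosome collagen, had 430 in MECs (338), 1557 in duct cells (497) and 8 in acinar cells (1.14). Lama3 was also the gene most like Trp63 in pattern (r = 0.993), before Postn (0.992), which encodes the matrix protein periostin, and Moxd1 (0.989).

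Nfib, the relative of Nfia, rose with Trp63 but was in every class. Its level was 1469, 825 and 971 in MECs, 1128, 773 and 719 in duct cells, 688, 549 and 525 in Ltf+ cells, 656, 343 and 407 in Tfrc-high cells, 367, 338 and 242 in Car6-high cells and 221, 132 and 136 in acinar cells. The order of the 6 classes was the same in each of the 3 libraries. MECs (log2 fold change 1.54, SE 0.16, adjusted p = 1.11e-09) and duct cells (1.27, SE 0.17, adjusted p = 1.36e-07) were higher and acinar cells lower (-1.74, SE 0.20, adjusted p = 9.83e-09). Of the neighbouring pairs, duct and Ltf+ cells differed (0.76, SE 0.22, adjusted p = 0.0101), and the other 4 pairs did not pass, with gaps of 0.23 to 0.61. The Car6-high value of -1.06 (SE 0.24, adjusted p = 0.00337) did not pass without male replicate 2 (-0.84, adjusted p = 0.243). Ccn2 (r = 0.962), a matricellular target of YAP and TEAD, Tsc22d1 (0.960) and Egr1 (0.960) were most like it.

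Of 24 listed relatives of these factors 13 were tested. In duct cells 8 were higher and 1 lower, beside 29.8% and 14.3% of all genes. In MECs 5 were higher and 4 lower, beside 29.6% and 16.4%, and in the acinar classes together 3 and 9, beside 18.7% and 36.6%. In duct cells Sox4 was higher by 4.36 log2 (SE 0.25, adjusted p = 1.16e-15), Runx2, the bone relative of Runx1, by 1.98 (SE 0.22, adjusted p = 8.39e-09) and Trp53, the p53 gene, by 1.77 (SE 0.24, adjusted p = 3.91e-07). In MECs Sox4 was at 2.61 (SE 0.30, adjusted p = 7.47e-09), Sox13 at -3.74 (SE 0.77, adjusted p = 0.000131) and Grhl1, a relative of Tfcp2l1, at -2.65 (SE 0.47, adjusted p = 1.80e-05). Etv5 belongs to this list as well as to that of the FGF response and is counted in both.

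Sox10, which marks MECs and the acinar buds of the developing gland, was the rarest of the 10 factors, with 245 UMIs over the 6 classes, of which MECs held 70.6% and Ltf+ cells 20.0%. Its level was 123, 167 and 144 in MECs, 22.7, 48.3 and 44.6 in Ltf+ cells, 2.21, 4.07 and 0 in duct cells and 0.472, 0.830 and 0.401 in acinar cells. In Car6-high cells it was 62.0, 37.6 and 0, on 11, 1 and 0 UMIs. Tfrc-high cells held 0 UMIs, which allows a level of up to 16.2 (3 UMIs over the 184886 of that class), so the pooled level of MECs was at least 8.38-fold higher. MECs were 2.05 log2 above Ltf+ cells (SE 0.31, adjusted p = 2.80e-06) and 5.69 above duct cells (SE 0.46, adjusted p = 3.00e-11). Ltf+ cells were in turn 3.64 above duct cells (SE 0.55, adjusted p = 5.53e-06) and 5.57 above acinar cells (SE 0.52, adjusted p = 3.19e-10). The differences of duct and acinar cells (1.93, SE 0.84, adjusted p = 0.0507) and of Car6-high and Ltf+ cells (0.36, SE 0.54, adjusted p = 0.731) did not pass. Crybg3 (r = 0.907), Slc12a2 (0.898), the basolateral chloride importer of secretory cells, and Dbi (0.865) were most like it.

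Sox10 is also a factor of Schwann cells, so markers of those cells were counted beside it. Cdh19, Foxd3 and S100b had 0 UMIs in the 930 MECs and 0 in the 665 Ltf+ cells. Cryab, a chaperone gene that Schwann cells share with other cell types, had 7970 UMIs in Ltf+ cells and 395 in MECs.

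Cells with both Kit, the stem cell factor receptor used to isolate LG progenitors, and Sox10 were few. Of 165 Ltf+ cells with a Kit UMI 13 had a Sox10 UMI (7.88%), against 5.2% of those without. Of 37 Car6-high cells with a Kit UMI 6 had one (16.2%), against 4.26%. After thinning to 300 UMIs, 1 of 114 Car6-high cells and 0 of 659 Ltf+ cells held both. In MECs 84 of 154 cells with a Sox10 UMI had a Trp63 UMI (54.6%), against 36.5% of the others. Thinned, it was 16% against 14.9%.

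Inside the Ltf+ class the factors were compared between cells with and without an Aldh1a1 UMI, a gene of retinoic acid synthesis that marks putative progenitors, over 3971 genes of which 0.655% were higher and 0.806% lower. There were 17, 23 and 17 cells with a UMI against 56, 278 and 274 without. Of 9 factors tested 2 passed, both lower in the cells with Aldh1a1, and Trp63 had too few UMIs to be tested. Bhlha15 was at 7.52, 16.4 and 26.3 against 120, 93.8 and 125 (log2 fold change -3.11, SE 0.60, adjusted p = 0.00936). Etv1 was at 7.52, 0 and 26.3 against 104, 117 and 96.2 (-3.57, SE 0.69, adjusted p = 0.00936). The groups did not overlap for either gene, but the counts were 3 against 117 UMIs for Bhlha15 and 2 against 111 for Etv1.

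As ratios of pooled levels with exact 95% counting intervals, cells with Aldh1a1 had 0.116 of the Bhlha15 level of those without (0.0235 to 0.346) and 0.0812 of the Etv1 level (0.00972 to 0.300). From cell-free RNA, 3.13 Bhlha15 UMIs were expected with Aldh1a1 (3 counted) and 64.4 without (117 counted). For Etv1 those values were 0.919 (2 counted) and 19.6 (111 counted), and the part of free RNA in the difference was not tested. The cells with Aldh1a1 were also deeper, with medians of 6790, 1737 and 1620 UMIs outside tear-product, mitochondrial and ribosomal protein genes against 3640, 917.5 and 790.5. Neither call was kept with total UMIs or without the library as a block (adjusted p = 0.0675 and 0.0671). Both were also lost with the split made on cells thinned to 300 UMIs. That split left 1, 5 and 3 cells with an Aldh1a1 UMI against 72, 295 and 283 without. With so few cells in 1 arm it cannot say whether depth accounts for the calls. Without the female library no factor passed (adjusted p = 0.351 for Bhlha15 and 0.265 for Etv1), without male replicate 1 only Bhlha15 did, and without male replicate 2 there were 4 calls.

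Ductal factors had values of the other sign in the same split, which did not pass. Tfcp2l1 was at 1084, 936 and 710 with Aldh1a1 and 745, 426 and 411 without (0.76, SE 0.19, adjusted p = 0.0635), and Runx1 at 843, 591 and 605 against 384, 393 and 434 (0.74, SE 0.19, adjusted p = 0.0759). Both differences had the same direction in 3 of 3 libraries and did not pass. Runx1 passed without male replicate 2 (0.77, adjusted p = 0.0322), as did Sox9 (0.72, adjusted p = 0.0461).

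No factor passed in the Kit split of Ltf+ cells (0 of 8 tested over 4158 genes, of which 0.192% were higher and 0.914% lower) or in the split of duct cells by a Krt5 UMI (0 of 7 tested over 1989 genes, of which 0% were higher and 0.754% lower). With edgeR at an unadjusted p under 0.05 there were 2 in the Kit split (Tfcp2l1 at 0.37, SE 0.12, and Runx1 at 0.34, SE 0.13) and 0 in the Krt5 split, while DESeq2 gave 0 calls among the factors for which it returned an adjusted p, 3 in the Kit split and 2 in the Krt5 split. Trp63, at 390, 255 and 170 in duct cells with a Krt5 UMI and 541, 139 and 250 in those without, had a difference of -0.22 (SE 0.20, adjusted p = 0.945). Libraries thus disagreed on its sign.

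**Figure D4:**
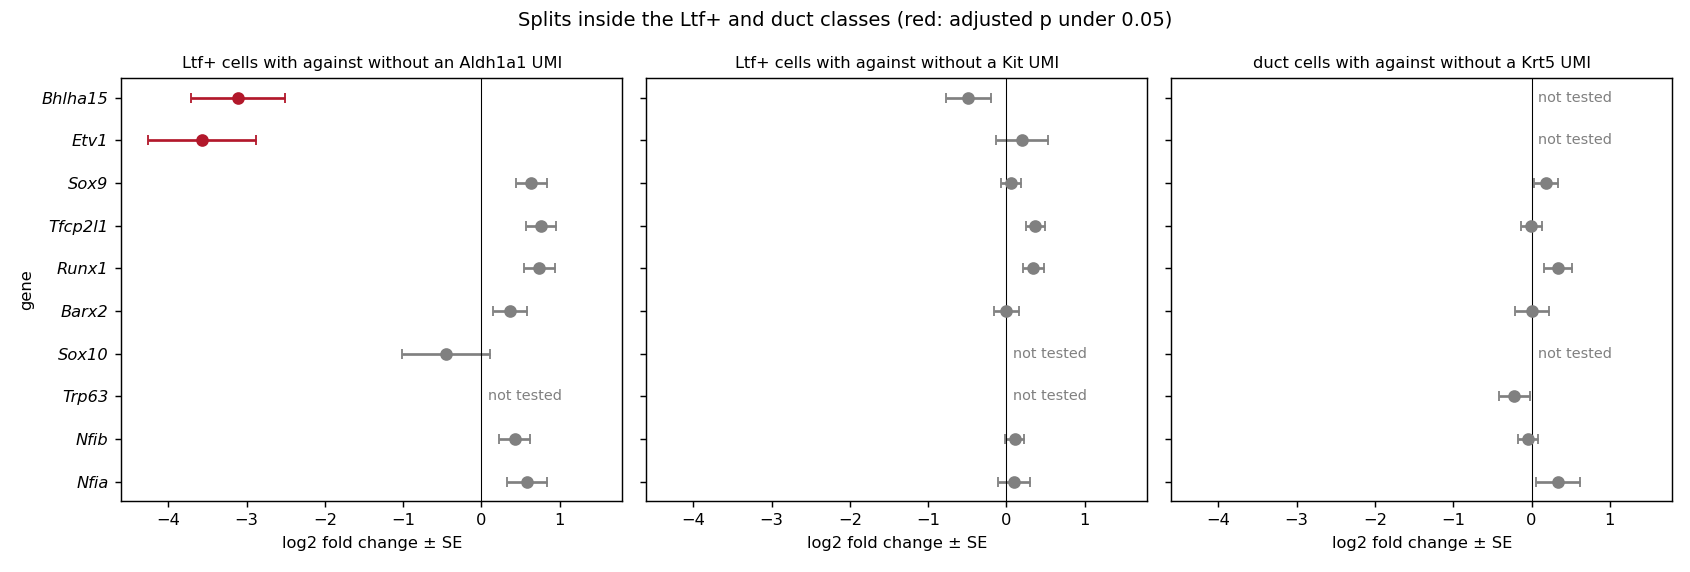
Log2 fold change ± SE of each factor (rows) between Ltf+ cells with and without an Aldh1a1 UMI, Ltf+ cells with and without a Kit UMI, and duct cells with and without a Krt5 UMI (panels). Bhlha15 (-3.11) and Etv1 (-3.57) in the Aldh1a1 split, in red, are the 2 values with an adjusted p under 0.05.

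The 10 patterns were set beside each other over the 18 sums of library and class, which share libraries and classes and give descriptions alone. The most alike pairs were Trp63 and Nfib (r = 0.907), Tfcp2l1 and Runx1 (0.824) and Etv1 and Bhlha15 (0.786). Tfcp2l1 and Barx2 reached 0.668 and Sox10 and Barx2 0.598. The most opposed pair was Nfib and Bhlha15 (-0.921).

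**Figure D5:**
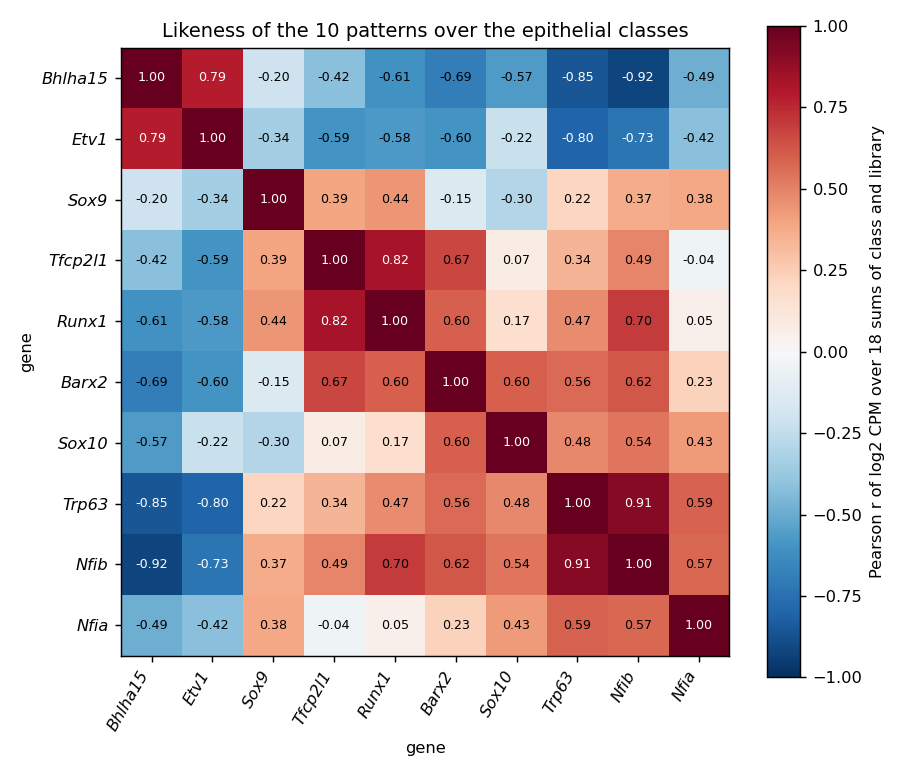
Pearson r between each pair of the 10 factors over 18 sums of UMIs (6 classes in 3 libraries, log2 counts per 1000000 with library means removed). Bhlha15 and Etv1 (0.79) form one block of red and Tfcp2l1, Runx1, Barx2, Trp63 and Nfib another, with Nfib and Bhlha15 at -0.92.

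Outside the epithelium, Sox9, Sox10, Barx2, Tfcp2l1 and Trp63 had mean levels of at most 43.1 in the fibroblast, endothelial, mural, lymphoid and myeloid classes. Nfib was at 1447, 1088 and 1004 in endothelial cells, beside 1469, 825 and 971 in MECs, and at 679, 221 and 263 in fibroblasts. Nfia was at 413, 259 and 227 in fibroblasts. Bhlha15 outside the epithelium ran at means of 25.3 to 70.9 in these 5 classes, and the cell-free RNA held it at a level of 329.8 to 384.

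Between the sexes the values are given without a test. In acinar cells Bhlha15 and Etv1 were lower in the female library (392 and 190) than in either male library (599 and 687, and 347 and 316), and Runx1 was higher (68.4 against 29.5 and 29.7). In MECs and duct cells Trp63, and in duct cells Tfcp2l1 (1133 against 647 and 633), were higher in the female library. Acinar cells of the female library had a median of 1407 UMIs outside tear-product, mitochondrial and ribosomal protein genes and those of male replicates 1 and 2 had 999 and 838, and depth, facility and day cannot be told apart from sex here.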

How the data were processed

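UMI counts per gene and barcode were deposited by the authors for 3 libraries, made with Cell Ranger 6.1.2 on mm10 per the processing notes and used here as raw counts, before the study's own removal of free RNA, doublets and low-quality cells. Barcodes with over 500 UMIs, over 200 genes and under 15% mitochondrial UMIs were kept, and 646, 287 and 315 doublets (scanpy 1.11.5) were removed. Cells were clustered with sctransform 0.4.2 and Seurat 5.3.0 (3000 features, 30 dimensions, resolution 1) with 334 genes, among them the 10 factors and the listed genes apart from the naming markers Gata3 and Sox2, left out. A cluster took the name whose markers scored at least 0.5 with 3 raised markers. Names with a rival from another compartment over 0.4 of the first were refused, a limit set after the clusters were seen.

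UMIs were summed per library and class, and edgeR 4.0.16 was fitted to all genes with class and library as terms, since classes of 1 library share 1 suspension. The edgeR test gives no standard error. SE here is the absolute log2 fold change divided by the square root of the F statistic of the test. DESeq2 1.42.0 was an alternative. Scripts were tested on simulated data. The 10 genes, the gene lists and the tests were chosen with earlier results of these data known. All 10 genes are named. Of each list up to 4 called genes with the greatest fold change are named, and for each factor the 3 genes closest in pattern. For FGF and p63 genes with a class at 0, counts replaced folds after the values were seen. Libraries were pools, and intervals cover counting error only. Part of the Schwann marker list is not reported here.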

Additional observations from a re-analysis of the deposited data

Results flagged for a closer look

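Barx2 stood out in a cluster that the comparisons did not use. Its mean level was 366 UMIs per 1000000 UMIs outside tear-product and mitochondrial genes in a cluster of 202 epithelial cells that was left without a name, with 496 in the female library, 337 in male replicate 1 and 264 in male replicate 2. The mean of Ltf+ cells, the named class with the most Barx2, was 327, with 275, 373 and 333. In both male libraries Ltf+ cells thus held more, and the mean of the cluster lay above theirs through its 24 cells of the female library. The cluster was led by Dcpp1, Car6, Pglyrp1, Wfdc18 and Sftpd, genes among which are markers of both Car6-high and Ltf+ cells. It was flagged because the mean over the 3 libraries lay above that of every named class, in cells outside the comparisons, and the difference was not tested. Bhlha15 in the same cells was at 327, 267 and 293, Etv1 at 444, 546 and 527, and Trp63 at 0 in all 3 libraries.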

How the results depend on the processing

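Of 945 single values in the class comparisons under the alternatives, 867 kept their direction and their side of the threshold, 52 no longer passed, 19 newly passed and 7 reversed. The count of 42 calls by class ran from 36 to 47, and from 36 to 40 with 1 library left out. Some calls of Barx2 and Trp63 were lost there with a class left without a UMI. The count of 10 in the acinar classes ran from 8 to 10, also with 1 library left out. With total UMIs Etv1, acinar was at -1.25, Nfia, duct at 0.93, Sox9, MEC at 0.65 and Runx1, MEC at 0.95, all moved toward the shift of all genes. Tfcp2l1, Car6-high acinar was at 1.67 at clustering resolution 2 and at 1.52 with the 2 unnamed clusters kept, where Bhlha15, Ltf+ was at 0.033 (this setting was added once the data had been seen). The cause of these was not tested.

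The 2 calls of the Aldh1a1 split fell to 0 with total UMIs and on thinned cells, and ran from 0 to 4 with 1 library left out. On thinned cells the arm with Aldh1a1 held only 1, 5 and 3 cells, too few to decide. DESeq2 gave no adjusted p for Bhlha15 and Etv1 there, so its count is not given. The Kit and Krt5 splits had 0 calls under each alternative run, with DESeq2 among only the 3 and 2 factors given an adjusted p.

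Classes of a library come from the same suspension, so the library was a block. Without the block there were 38 calls by class and 10 in the acinar classes, and 0 in the Aldh1a1 split. No paired analysis was possible between the sexes because there was 1 female library.

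Shares of cells with a UMI rose with depth, as unthinned cells gave 16.6% for Sox10 in MECs, 44.7% for Runx1 and 37.1% for Barx2 in Ltf+ cells, 67.6% for Tfcp2l1 in duct cells, 39.5% for Trp63, 63.7% for Nfib and 31.6% for Nfia in MECs and 57.0% for Bhlha15 in acinar cells. Tfrc-high and Car6-high cells were few, and Sox10 (0 and 12 UMIs), Tfcp2l1 (6 and 12) and Trp63 (1 and 2) were rare in them.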
